A study of Mus musculus with 4 samples.

Results

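The Cd8a and Cd8b1 locus was examined in DNase I peak lists of mouse CD8+ T cells. The locus was taken as chr6:71220000-71380000 in build mm9, a window of 160 kb. It holds Cd8b1 at about 71.272 to 71.288 Mb and Cd8a at about 71.323 to 71.329 Mb. These gene positions are given to the nearest kb, so every distance from a gene below carries that rounding. Peaks of the 4 lists that overlapped by at least 1 bp were merged into regions. Of 38986 regions in the genome, 19 had their midpoint in the window, and these are described here as sites. Within this locus the sites were chosen by position alone, not by their values.

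The cells were naive CD8+ T cells sorted from spleen as GFP+, TCRbeta+, CD62Lhi and CD44lo-med. They were then cultured over 72 h with IL-7 plus IL-15, and the sample titles call them "stim CD8". The double knockout (DKO, Tcf1-/-Lef1-/-) came from mice with floxed Tcf1 and Lef1 alleles, and the wild type (WT) from mice with the intact alleles. Both groups carried hCD2-Cre, a recombinase under human CD2 control that acts in lymphocytes, and Rosa26-lsl-GFP, which marks cells in which Cre has acted. Each genotype had 2 libraries, and the labels give no age, sex or animal for them, so p-values measure only the spread between these libraries, which may be technical. The design asks which accessible sites differ when Tcf1 and Lef1, DNA-binding proteins of the T lineage, are absent.

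Cd8a and Cd8b1 encode the chains of CD8, the coreceptor with which cytotoxic T cells bind MHC class I. The alpha chain carries the cytoplasmic contact for the kinase Lck, and the beta chain pairs with it on conventional CD8+ T cells. The neighbouring genes are known to share a set of enhancers, called E8, several of which lie between them and act at different stages of T cell life. Runx factors bind this locus, and Tcf1 and Lef1 are known to help keep Cd4 silent in CD8+ T cells. The files carry no enhancer annotation, so no site is given an enhancer name here. In the order of the RefSeq annotation the genes next to the pair are the long noncoding RNA gene Gm38828 on the Cd8b1 side and Rmnd5a on the Cd8a side. Sites outside the pair may therefore lie at other genes.

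The 250 bases before the start of Cd8a are shown because only 1 of the 4 lists had a peak at that start, which is described below. The sequence is from RefSeq, build GRCm38.p6, chr6:71373177-71373426, plus strand. That build differs from mm9, so its positions are not to be set against the peaks. The table used held a promoter for 1 of the 2 genes, Cd8a. Capitals mark the letters GGAA on either strand, the core of Ets family motifs, which read TTCC where they lie on the minus strand.
Cd8a promoter: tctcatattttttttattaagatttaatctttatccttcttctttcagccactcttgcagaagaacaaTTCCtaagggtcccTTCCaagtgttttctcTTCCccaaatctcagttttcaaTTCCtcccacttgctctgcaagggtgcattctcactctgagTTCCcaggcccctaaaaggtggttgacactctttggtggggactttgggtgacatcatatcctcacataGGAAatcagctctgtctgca
The search covered both strands and 3 motifs that do not overlap one another here. GGAA matched 6 times, the nearest beginning 20 bases before the start, and 93.4% of all 32851 RefSeq promoters cut to this length hold it at least once. The TCF/LEF letters CTTTGA matched 0 times, and 13.8% of promoters hold them. The RUNX letters TGNGGT also matched 0 times, and 40.1% of promoters hold them. A match describes letters and is not a binding site.

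Both DKO libraries had more peaks in the locus than both WT libraries, in the proportion in which their whole lists were longer. The window held 16 and 9 peaks in DKO replicates 1 and 2, against 7 and 5 in WT replicates 1 and 2. The means were 12.5 ± 4.95 peaks in DKO and 6.0 ± 1.41 in WT (SD, n = 2 each), a ratio of 2.08. The whole lists held 34788 and 21353 peaks in DKO and 17521 and 11073 in WT, a ratio of means of 1.96. The locus therefore took nearly the same share of each list, at 0.0460% and 0.0421% in DKO and 0.0400% and 0.0452% in WT, and on this scale the genotypes overlapped. The peaks covered 2837 and 1541 bp of the window in DKO, against 1242 and 929 bp in WT. The difference in mean log2(peak number + 1) was 0.91 and that in mean log2 covered bases 0.96. For either measure the two-sided exact permutation p was 0.33, the smallest that 2 libraries against 2 allow. With every list held to its 11073 peaks of highest −log10 p, the window kept 4 and 1 peaks in DKO and 4 and 5 in WT, so the direction turned.

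Library facts that move with genotype stand beside these counts. Read totals are not in the files. The lowest local background, which grows with depth where no control library sets it, was 1.23 and 1.15 fragments per position in DKO and 1.50 and 1.47 in WT. Chromosome Y held 55 and 57 peaks in the DKO lists and 0 and 0 in the WT lists. The part of list length, depth and whatever gave the Y calls in the locus counts was not tested. In a bulk sample, fewer cells with an open site and less cutting per cell cannot be told apart.

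**Figure D1:**
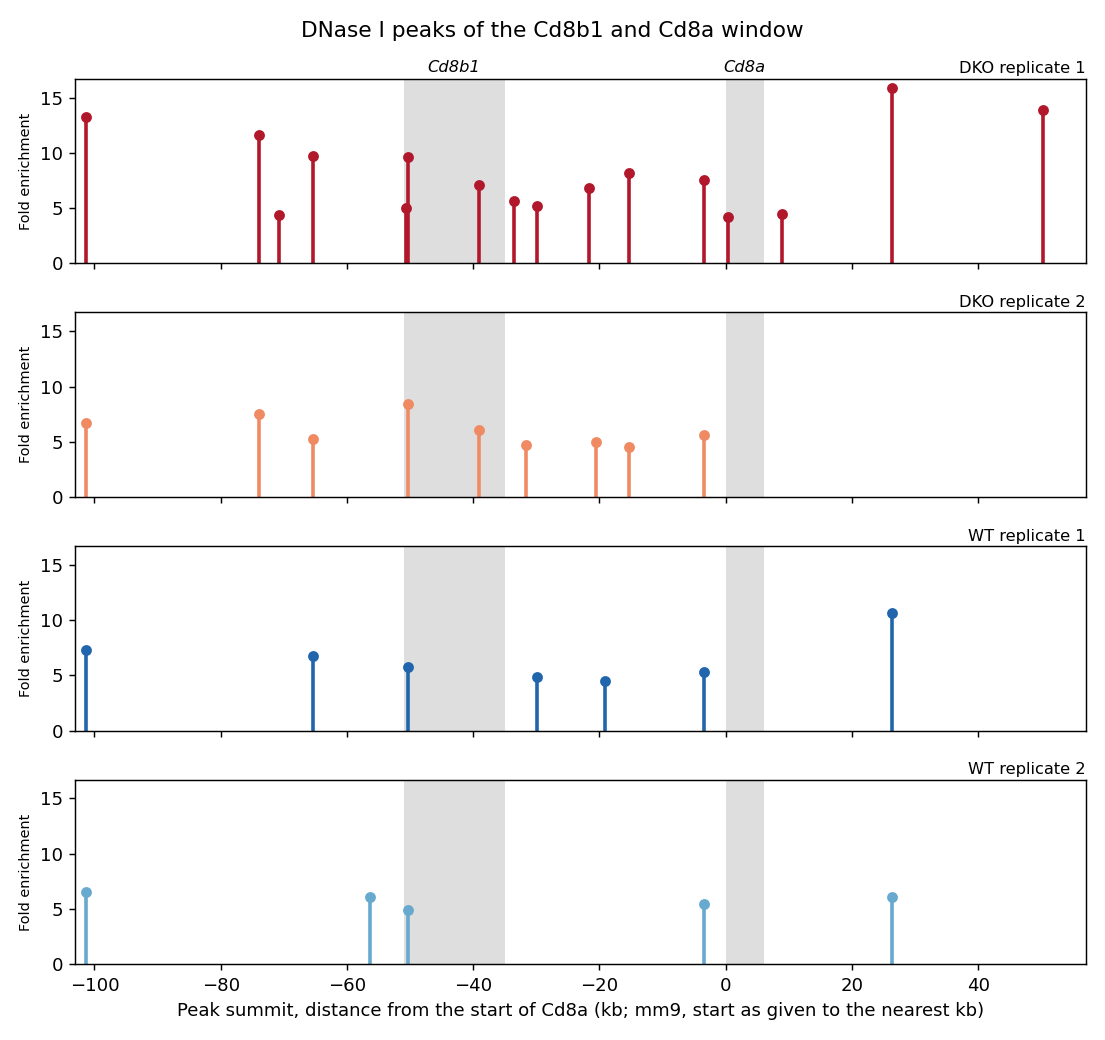
Fold enrichment (vertical axis, the authors' value for each peak) against the distance of the peak summit from the start of Cd8a in kb (horizontal axis), with 1 row for each library and the genes in grey. The 16 and 9 peaks of the DKO libraries and the 7 and 5 of the WT libraries are all drawn, and DKO replicate 1 alone has a peak inside Cd8a.

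Of the 19 sites, 3 were called in all 4 libraries, 2 in 3 libraries, 4 in 2 and 10 in 1 library. The 3 sites called everywhere are 15.8% of the locus, against 20.7% of all regions. Another 3 sites, again 15.8%, were called in both DKO libraries and neither WT library, against 14.3% of all regions. No site was called in both WT libraries and neither DKO library, a class that holds 0.631% of all regions. These counts depended on the lists. The sites called everywhere fell to 0 at equal list length and at a −log10 q of at least 10. They fell to 1 where a peak had to cover 50% of the site. That was chr6:71221379-71221720, near the edge of the window, and no site next to the Cd8 genes was left. The DKO-only sites fell to 0 at equal list length. At a −log10 q of at least 10 the count was 1, but this was the site at the start of Cd8b1. Its WT peaks, with a −log10 q of 9.01 and 5.64, dropped out. None of the 3 DKO-only sites of the full lists kept its DKO replicate 2 peak at that limit. The DKO-only sites numbered 5 without DKO replicate 1 and 9 without DKO replicate 2. Among the 7 sites called in both DKO libraries, 3 (42.9%) had no WT call, and genome-wide this share was 29.3%. All 4 sites called in both WT libraries had at least 1 DKO call, and genome-wide 2.76% of such regions had none. Of the 8 sites called in any WT library, 6 (75.0%) had a DKO call, against 87.1% of such regions genome-wide. Sites called in 1 library made up 52.6% of the locus and 41.7% of all regions.

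The locus was crowded when every site was counted, the 10 called in 1 library included. Only 0.868% of the 7830 windows of 160 kb on a fixed grid that hold a region held 19 or more. The median was 4 regions and the fullest window held 54. The repeated calls were less unusual. At least 3 regions called in all 4 libraries, as here, were held by 11.6% of these windows. At least 3 DKO-only regions, also as here, were held by 6.54%. By stretch, 5 sites lay before Cd8b1, 2 in Cd8b1, 8 between the genes, 1 in Cd8a and 3 after Cd8a.

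The start of Cd8b1 was accessible in all 4 libraries. The site chr6:71272269-71272869 spans 601 bp at the position given for that start. Its strongest peak had a fold enrichment of 9.59 and 8.43 in DKO replicates 1 and 2, against 5.73 and 4.89 in WT replicates 1 and 2. At the summit lay 31 and 24 fragments in DKO, against 22 and 17 in WT. The folds of all regions called in every library were also higher in DKO. Their medians were 13.2 and 9.59 in DKO and 7.51 and 6.61 in WT. Over the whole lists the median fragments at the summit were 23 and 18 in DKO and 19 and 18 in WT. The share of all regions with both DKO values above both WT values on these scales was not computed. No difference between the genotypes at this site is therefore read from them. The fold is the authors' value for each peak, the fragments piled up at the summit over the local background, and it ranks peaks within a list only. DKO replicate 1 had a second peak here, chr6:71272269-71272455, with a fold of 5.05. The summits of the strongest peaks lay within 10 bp of one another, at 71272729 and 71272724 in DKO and 71272734 and 71272728 in WT. Over all 8068 regions called in every library, the 4 summits spanned a median of 44 bp, with an upper quartile of 98 bp.

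A site shortly before Cd8a was also called in all 4 libraries. It is chr6:71319398-71319683, with its midpoint 3.5 kb before the given start of the gene. Its fold was 7.55 and 5.62 in DKO, against 5.34 and 5.43 in WT. At the summit this was 25 and 14 fragments in DKO, against 18 and 19 in WT. DKO replicate 1 had the most fragments and DKO replicate 2 the fewest, with both WT libraries between them. The summits spanned 44 bp.

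The remaining site called everywhere, chr6:71221379-71221720, lay 50.5 kb before the given start of Cd8b1, near the edge of the window. Its fold was 13.3 and 6.72 in DKO, against 7.27 and 6.53 in WT. DKO replicate 1 was high here with 43 fragments at the summit, while DKO replicate 2 with 18 was below the 23 and 19 of the WT libraries.

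To rank these sites on a common footing, each library's folds were turned into percentiles among the 8068 regions called in every library. The site before Cd8a stood at percentiles 5.42 and 6.32 in DKO, against 11.5 and 23.6 in WT. Both DKO values were below both WT values, and 19.0% of the shared regions were ordered in this way. The site at the start of Cd8b1 stood at 17.1 and 35.4 in DKO, against 17.1 and 12.2 in WT, with replicates 1 tied. The edge site stood at 50.3 and 15.6 in DKO, against 45.3 and 48.3 in WT, and its groups overlapped. The opposite order, both DKO values above both WT values, was met by 0 of the 3 sites and by 19.1% of the shared regions. By fold, the count of 0 rests on the tie at Cd8b1: ranked among autosomal regions alone, that tie broke and 1 site stood higher in DKO. With each library left out the count by fold was 1 or 2. Ranked by −log10 p or by fragments at the summit, the count stayed 0. By −log10 p the Cd8b1 site stood at 16.3 and 37.2 in DKO, against 25.4 and 18.9 in WT, so its groups overlapped without a tie. With 3 sites, these counts do not set the locus apart from the shared regions. Both sites next to the Cd8 genes ranked below percentile 50 in all 4 libraries.

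**Figure D2:**
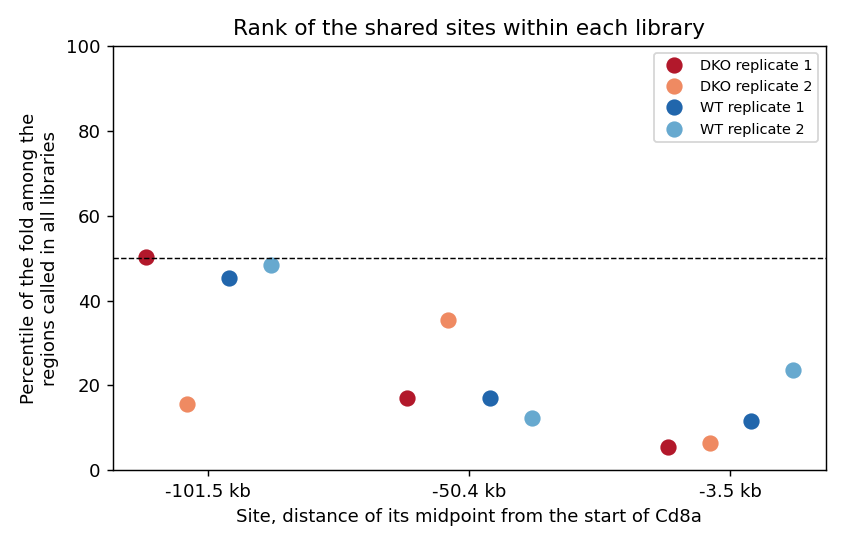
Percentile of the fold (vertical axis) of the 3 sites called in all libraries, ranked within each library among the 8068 shared regions, by distance of the site's midpoint from the start of Cd8a in kb (horizontal axis). Each point is 1 library. At the site nearest to Cd8a the DKO points, 5.42 and 6.32, lie under the WT points, 11.5 and 23.6, and the dashed line marks 50.

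The DKO-only calls fell 1 each before Cd8b1, in Cd8b1 and between the genes. The site before Cd8b1, chr6:71248905-71249009, lay 23.0 kb before the given start of Cd8b1. Its fold was 11.7 and 7.53 in DKO replicates 1 and 2, with 31 and 16 fragments at the summit. Both lists began this peak at the same base, and their summits were 5 bp apart. Over all 19062 regions called in both DKO lists the median distance between the DKO summits was 14 bp.

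The site in Cd8b1, chr6:71283939-71284117, lay 12.0 kb after its given start. Its fold was 7.12 and 6.10 in DKO, with 27 and 18 fragments and summits 21 bp apart. Of the DKO-only sites it differed least between the DKO libraries, whose folds stood at a ratio of 1.17.

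The site between the genes, chr6:71307526-71307886, lay 15.3 kb before the given start of Cd8a. At 361 bp it was the widest of the DKO-only sites in the locus. Its fold was 8.14 and 4.53 in DKO, with 36 and 14 fragments. In DKO replicate 1 it ranked 3 by fragments but 7 by fold among the 16 peaks of the window, over a local background of 3.54 fragments. In DKO replicate 2 its fold was the lowest of the 9 peaks in the window, and 6.75% of that whole list had a lower fold. The lowest fold lay just above 4 in all 4 lists, so the DKO replicate 2 call was near the floor of its list.

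Absence from a list means that a site did not pass the listing, not that it was closed. The peak numbers in the names run in order along each list and have gaps, 1476 and 908 in DKO and 1530 and 871 in WT, so some calls had been taken out before deposit. At the DKO-only site before Cd8b1 no number was missing in either WT list between the neighbouring peaks. At the other DKO-only sites, no number was missing in WT replicate 1. In WT replicate 2, 1 number was missing between 71272869 and 71319503, a stretch of 46.6 kb that contains both sites, so a removed WT call at 1 of them cannot be told apart from a call elsewhere in that stretch. At equal list length the site before Cd8b1 kept its DKO replicate 1 peak only, and the others had no peak left in either DKO list.

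**Figure D3:**
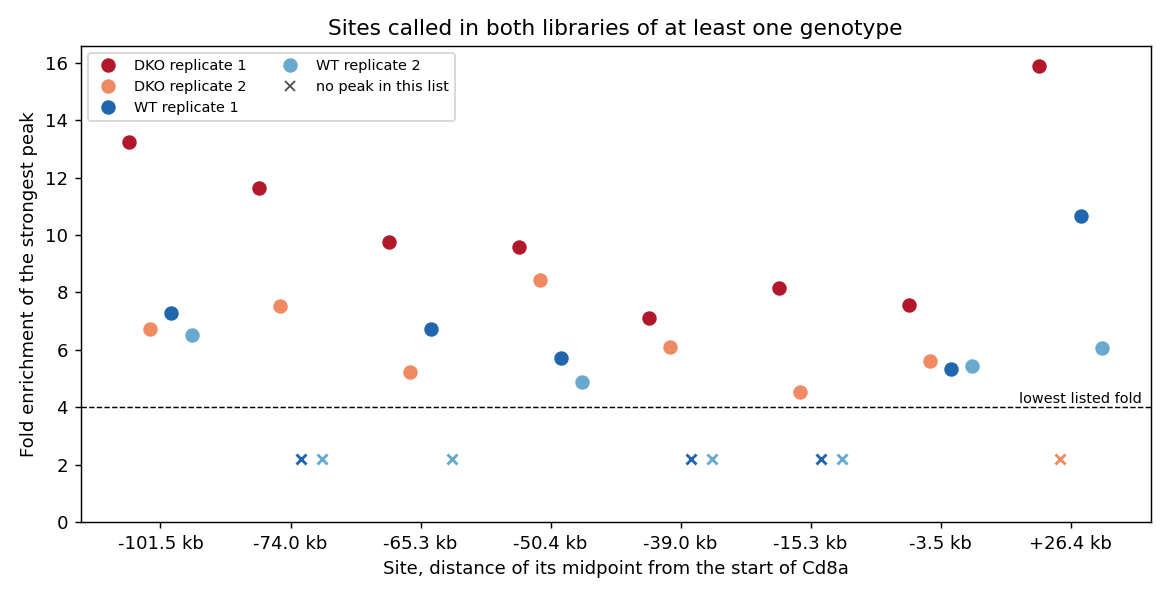
Fold enrichment of the strongest peak (vertical axis) at each of the 8 sites called in both libraries of at least 1 genotype, placed by the distance of the midpoint from the start of Cd8a in kb (horizontal axis, not to scale). Circles are single libraries, crosses mark lists with no peak and carry no value, and the dashed line is the lowest listed fold, just above 4. The DKO-only sites at 74.0, 39.0 and 15.3 kb before Cd8a have crosses for both WT libraries.

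The peak at the start of Cd8a was weak and came from 1 library. The site chr6:71323342-71323469 was called in DKO replicate 1 with a fold of 4.18 and 15 fragments, and 2.16% of that list had a lower fold. Neither DKO replicate 2 nor WT replicate 2 had a missing number around it. WT replicate 1 had 1 missing number between 71319672 and 71349325. The start of Cd8b1 was thus listed in 4 libraries and that of Cd8a in 1, in cells sorted as CD8+. Absence from the other lists does not mean that the start of Cd8a was closed.

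Beyond Cd8a, the highest fold in the locus belonged to a site that was not called in every library. The site chr6:71349234-71349551, 20.4 kb after the given end of Cd8a, had a fold of 15.9 in DKO replicate 1, against 10.7 and 6.08 in WT replicates 1 and 2. It was absent from DKO replicate 2, which had no peak and no missing number from 71319646 to 71390486, a stretch of 70.8 kb. In DKO replicate 1 and WT replicate 1 this was the strongest peak of the window by fold. It had 38 fragments in DKO replicate 1 and 28 and 14 in the WT libraries. The site follows neither genotype nor replicate number.

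A site before Cd8b1, chr6:71257567-71257811, was called in both DKO libraries and in WT replicate 1. Its fold was 9.76 and 5.24 in DKO, against 6.71 in WT replicate 1, which lay between them. A site between the genes, chr6:71293090-71293233, was shared by the replicates 1 alone, with a fold of 5.18 in DKO and 4.83 in WT. Its summits were 10 bp apart.

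Of the 10 sites called in 1 library, 6 came from DKO replicate 1, 2 from DKO replicate 2, 1 from WT replicate 1 and 1 from WT replicate 2. Genome-wide, 75.9% of the regions called in 1 library came from DKO replicate 1, the longest list. The strongest in the locus was chr6:71373259-71373362 in DKO replicate 1, with a fold of 13.9 and 30 fragments. The other DKO replicate 1 sites, the start of Cd8a included, had folds from 4.18 to 6.79. The DKO replicate 2 sites, chr6:71291335-71291435 and chr6:71302282-71302426, had folds of 4.75 and 4.94. The WT replicate 1 site chr6:71303898-71304014 had a fold of 4.46, and the WT replicate 2 site chr6:71266509-71266695 had a fold of 6.04. Between the genes, 5 of the 8 sites were called in 1 library, and these 5 had folds from 4.46 to 6.79.

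The local background rose across the Cd8 genes in every library. This background is the fragment level around a peak against which the authors' caller judged it, and it was solved here from the fold and p of each peak. From the start of Cd8b1 to the end of Cd8a its median over peaks was 2.93 and 2.18 fragments in DKO and 3.25 and 2.68 in WT. Over the other peaks of the window the medians were 1.75 and 1.29 in DKO and 1.83 and 1.82 in WT. The ratio of these medians was 1.68 and 1.69 in DKO and 1.78 and 1.48 in WT, and the genotypes overlapped in it. Within a library, the lowest background inside the gene pair exceeded the highest outside in DKO replicate 1, WT replicate 1 and WT replicate 2. In DKO replicate 1 the margin was small, with 2.34 inside against 2.32 outside. How often other stretches of the genome show such a rise was not computed. In DKO replicate 2 the values overlapped, with 1.67 as the lowest inside and 1.83 as the highest outside. Every peak inside, 9 and 6 in DKO and 4 and 2 in WT, had a background above the median of its whole list.

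In all 4 libraries the highest background of the window lay between the genes, in WT replicate 2 by a small margin. At chr6:71293090-71293233 the background was 3.83 in DKO replicate 1 and 3.56 in WT replicate 1, higher than under 95.9% and 97.4% of the peaks of those lists. In DKO replicate 2 the highest was 2.58, at chr6:71291335-71291435, above 92.6% of its list. The single WT replicate 2 peak between the genes had 2.685, above 90.3% of its list. Its peak at the start of Cd8b1 had 2.680, above 90.1%.

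The background sets how many fragments a given fold takes. A fold of 4 is used here because the lowest listed fold lay just above it, while the processing notes state no limit. Whether such a limit decided any absence from a list was not tested. At the 3.49 fragments under the WT replicate 1 peak chr6:71303898-71304014, a fold of 4 takes 17 fragments. At the 1.72 under that library's peak after Cd8a it takes 10. At the start of Cd8a, DKO replicate 1 had 15 fragments over a background of 2.83, where a fold of 4 takes 15. At the DKO-only site 15.3 kb before Cd8a, DKO replicate 1 had 36 fragments over a background of 3.54, where a fold of 4 takes 18, and DKO replicate 2 had 14 over 2.31, where it takes 13. Whether the caller had a control library is unknown, and without one the local background includes fragments of the sites themselves. The part of crowded sites in the rise was not tested.

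**Figure D4:**
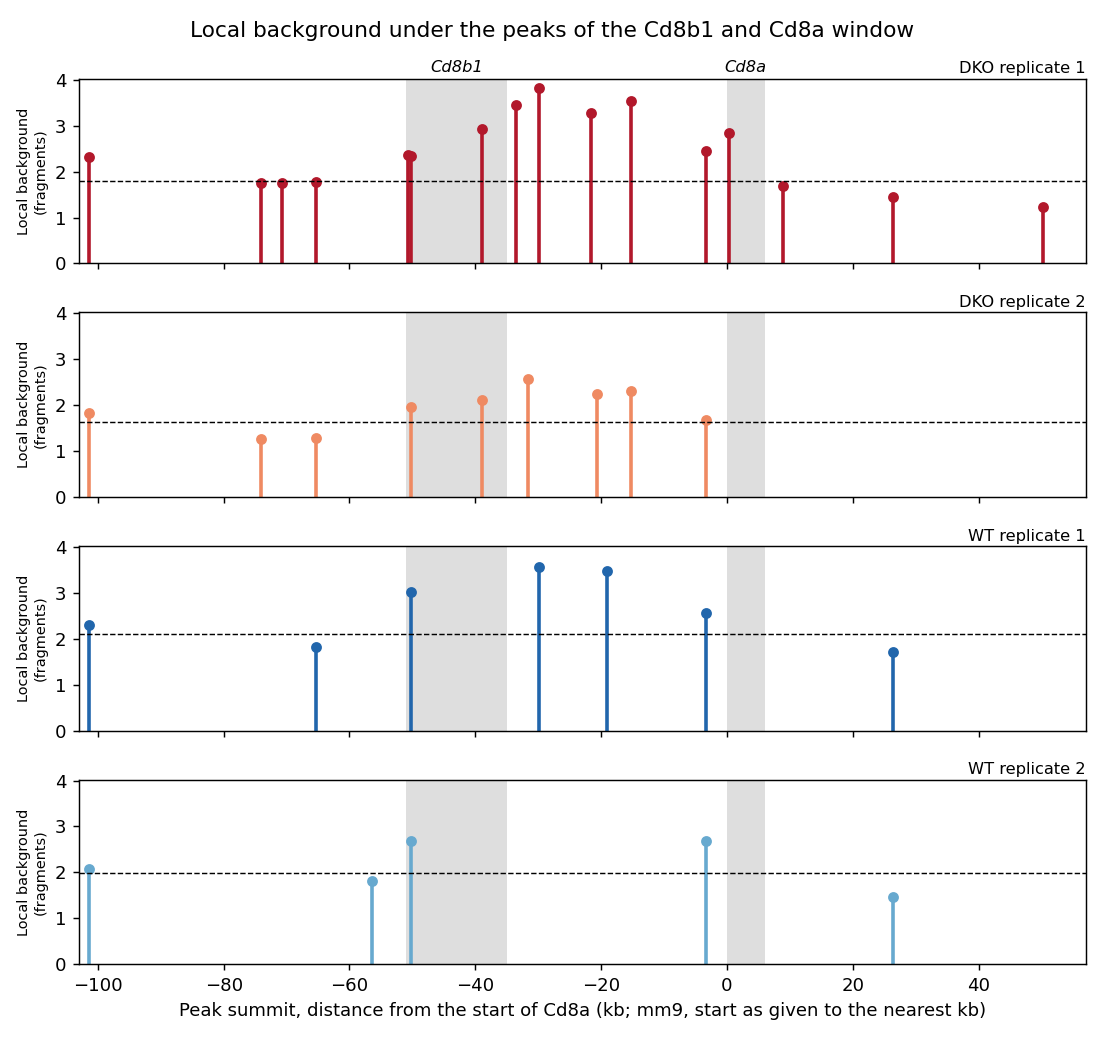
Local background in fragments (vertical axis) under each peak against the distance of its summit from the start of Cd8a in kb (horizontal axis), with 1 row for each library, the genes in grey and the median of the library's whole list as a dashed line. In each row the points from Cd8b1 to Cd8a lie above the dashed line, and DKO replicate 1 reaches 3.83 between the genes.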

How the data were processed

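DNase-seq libraries were sequenced on an Illumina instrument, per the labels' protocols. The submitters' processing notes name FastQC, Bowtie2 2.2.5, MACS2 2.1.1 and build mm9, without settings or any control library. For each peak the authors deposited a fold (ratio to local background), the −log10 p, the −log10 q and a score, 10-fold the −log10 q. Peaks were called per library. Fragments at the summit and local background were solved from fold and p, taking MACS2's fold as pileup plus 1 over background plus 1. The pileup came out whole within 0.02 for 100% of peaks with a −log10 p under 250 in each library, and the solution was tested on simulated data. Counting error is not known, since read totals are not given. Group and replicate came from the sample titles. Positions count from 1. A site belongs to the window by its midpoint. The sites given in full are those called in both libraries of at least 1 genotype. The locus, and with it the members, lists and tests, was chosen with earlier results of these data known; within the locus every region was taken by its position. The alternatives were a −log10 q of at least 5 or 10, lists of equal length, the window from Cd8b1 to Cd8a, merging within 500 bp, coverage of at least 50% of a region, other rankings, a replicate block and each library left out. Markers of other cell types were not checked, since no gene annotation of mm9 was used. Python 3.11.15, numpy 2.4.6, pandas 2.3.3 and scipy 1.17.1 were used.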

Additional observations from a re-analysis of the deposited data

How the results depend on the processing

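At equal list length the log2 differences reversed, to -0.79 for peaks and -1.37 for covered bases, and 0 sites were called in all 4 libraries and 0 were DKO-only. At a −log10 q of at least 10 these site counts were 0 and 1. The DKO-only site was then the start of Cd8b1, whose WT peaks dropped out. The log2 difference in peaks was 1.50, but the genotypes overlapped, with 11 and 1 peaks in DKO and 2 and 0 in WT. WT replicate 2 then had no peak, so covered bases gave no value. At a −log10 q of at least 5 the peaks were 13 and 7 in DKO and 7 and 5 in WT. DKO replicate 2 and WT replicate 1 were then tied. Where a call had to cover 50% of its site, 1 site was called everywhere, that near the edge of the window. Ranked among autosomal regions, 1 site stood higher in DKO, because the tie at the start of Cd8b1 was broken. The percentile of the fragments at the summit was added after the data were seen and changed neither rank count. With each library left out, the log2 difference ran from 0.53 to 1.29 for peaks and from 0.52 to 1.40 for covered bases. Sites called everywhere ran from 3 to 4. DKO-only sites ran from 3 to 9, with 5 without DKO replicate 1 and 9 without DKO replicate 2. WT-only sites ran from 0 to 1. Leaving out a library can only raise these site counts. Sites ranked higher in DKO ran from 1 to 2, and those ranked lower from 1 to 2. Replicate numbers are shared between the genotypes, but no label says that they pair samples; with the replicate block the differences stayed 0.91 and 0.96, and the exact sign-flip permutation p was 0.50, the smallest that 2 pairs allow. Without read totals, no depth-based limit can be set for a site absent from a list.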
